A study of Homo sapiens with 3 samples.

Results

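The trefoil factors TFF1, TFF2 and TFF3 and the disulphide isomerases AGR2 and AGR3 were followed across 3 Affymetrix HG-U133 Plus 2 arrays of MDA-MB-231 cells. The members were the probe sets that the platform annotation pairs with exactly 1 symbol, that symbol being one of these 5 genes. They made up 5 of 19775 measured genes and 6 of 41097 such probe sets. AGR2 had 2 probe sets and the other 4 genes had 1 each. The genes were brought together with their differences between these arrays already known, so the values are a description and carry no test.

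MDA-MB-231 is an established human breast cancer line of mesenchymal-like character, generally counted among lines without oestrogen receptor alpha (ERα). All cells first spent 4 h in steroid-poor medium, its 10% serum having been stripped with charcoal. The groups were then cells given the oestrogen estradiol at 1 µM, cells given ERα17p, a peptide derived from ERα, at 1 µM, and cells given 0.1% ethanol as vehicle, each for 3 h. Every group had 1 array, so no difference has a replicate check, and the sources used here name no solvent for the peptide. An ethanol percentage was available here for the vehicle group only.

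Trefoil factors are small secreted peptides, held together by disulphide bonds, that mucous epithelia release with their mucins and that take part in repair of the epithelial surface. TFF1, formerly pS2, is a textbook oestrogen-induced gene of ERα-positive breast cancer cells. AGR2 and AGR3 belong to the protein disulphide isomerase family, which forms and rearranges disulphide bonds in the endoplasmic reticulum. AGR2 is needed for intestinal mucin production in mice, and in breast cancer both AGR genes are chiefly markers of luminal, ERα-positive tumours.

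The deposited values are centred log2 values: each probe set was set relative to a reference level that no source describes, so 0 means that level and not absence of RNA. They are read as log2 because RMA, named by the submitters, gives that scale; the base is not stated. Expression levels, and whether a gene was above background, are therefore unknown, and genes cannot be ranked by level. For the same reason the label of the cell line could not be checked against its markers. The SD of the centred values over 54675 probe sets was 0.260 with estradiol, 0.241 with ERα17p and 0.494 with vehicle. Spike-in bacterial RNAs that go through labelling with the sample were 2.03 higher with estradiol and 2.04 higher with ERα17p than with vehicle on the log2 scale (medians of 27 probe sets). Spike-ins added only at hybridisation were at -0.74 and -0.93 (18 probe sets). The part of these array differences in the results below was not tested.

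TFF1, TFF2 and AGR2 were far higher on both treated arrays than on the vehicle array, and TFF3 and AGR3 differed little between any arrays. With estradiol, 3 of the 5 genes were at least 2-fold higher than with vehicle and 0 were lower. Of all genes, 3.94% passed 2-fold upward and 2.18% downward. With ERα17p the same 3 genes were at least 2-fold higher and 0 lower, against 3.34% and 2.48% of all genes. Since the genes were chosen on these contrasts, nothing is read from the counts. Both comparisons use the same vehicle array. The median over the 5 genes was 3.28 with estradiol and 3.05 with ERα17p, beside a median of 0.00 over all genes in either comparison. In bulk RNA, fewer cells of a type and less RNA per cell cannot be told apart.

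**Figure D1:**
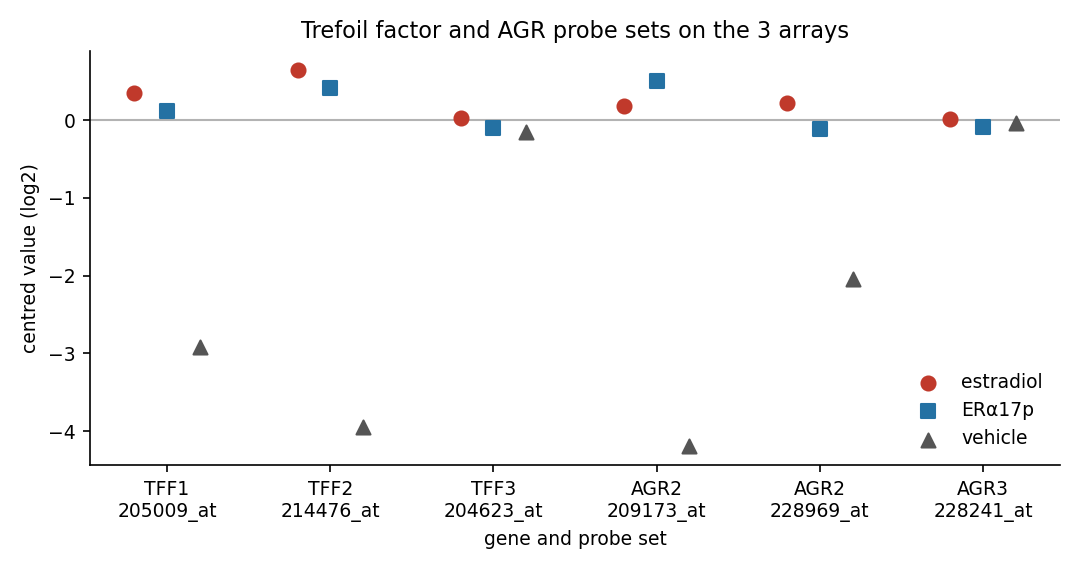
Centred log2 value (vertical axis) of each of the 6 probe sets (horizontal axis) on the estradiol, ERα17p and vehicle arrays, 1 point per array. The vehicle points of TFF1, TFF2 and both AGR2 probe sets lie between -4.20 and -2.04, while every other point lies between -0.15 and 0.65.

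Among the trefoil factors, TFF2, the spasmolytic polypeptide of gastric mucous cells, showed the widest separation. Its probe set 214476_at read 0.65 with estradiol, 0.41 with ERα17p and -3.94 with vehicle. The treated arrays lay close together, a little above the reference level, and the vehicle array lay far below it. The difference was 4.59 for estradiol (24.1-fold) and 4.36 for ERα17p (20.5-fold), the highest of 19775 genes in each comparison. On the vehicle array TFF2 was among the 10 lowest of the 54675 probe sets. On the treated arrays TFF2 was in the upper part of the distribution too: 172 genes, itself included, read at least as high with estradiol and 394 with ERα17p.

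TFF1, the oestrogen-induced trefoil factor, followed the same order of arrays at a smaller scale. Probe set 205009_at read 0.35 with estradiol, 0.12 with ERα17p and -2.92 with vehicle. Again the vehicle array alone was low. TFF1 was 3.28 higher with estradiol (9.70-fold) and 3.05 higher with ERα17p (8.27-fold), the 14th highest gene in each comparison.

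TFF3, the intestinal trefoil factor of goblet cells, did not share this pattern. Its probe set 204623_at read 0.02 with estradiol, -0.10 with ERα17p and -0.15 with vehicle. All 3 values lay within 0.17 of each other. The differences from vehicle were 0.17 (1.13-fold) for estradiol and 0.05 (1.04-fold) for ERα17p. The ERα17p value changed sign, to -0.03, when each array was scaled to the same SD. In the estradiol comparison 32.5% of all genes were at least as high as TFF3.

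The AGR genes were split in the same way. AGR2 was read by 2 probe sets that gave the same direction and different sizes. Probe set 209173_at read 0.18 with estradiol, 0.50 with ERα17p and -4.20 with vehicle, and was among the 5 lowest probe sets of the vehicle array. Probe set 228969_at read 0.22 with estradiol, -0.11 with ERα17p and -2.04 with vehicle. Both probe sets were therefore low on the vehicle array and near the reference level on the treated arrays. The first gave differences from vehicle of 4.38 (20.8-fold) for estradiol and 4.70 (25.9-fold) for ERα17p. The second gave 2.26 (4.79-fold) and 1.93 (3.82-fold). The median over both probe sets, used as the value of the gene, was 3.32 for estradiol (9.98-fold) and 3.31 for ERα17p (9.95-fold), the 13th and 12th highest of all genes.

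The gap between the AGR2 probe sets was set beside that of all genes with 2 probe sets, and each count below includes AGR2. It was 2.12 in the estradiol comparison, where 63 of 5015 genes with 2 probe sets (1.26%) had a gap at least as wide and the median gap was 0.37. In the ERα17p comparison it was 2.76, with 10 of the 5015 genes (0.199%) at least as wide and a median gap of 0.35. The genes past 2-fold upward with estradiol included 230 with 2 probe sets, and in 102 of these, AGR2 among them, both probe sets passed 2-fold. Among these 230 genes the median gap was 0.71, and 24, AGR2 included, had a gap at least as wide as AGR2. With ERα17p both probe sets passed in 80 of 179, the median gap was 0.74, and 7 had a gap at least as wide. Of the 779 genes past 2-fold upward with estradiol, 360 rested on 1 probe set, TFF1 and TFF2 among them, and have no such check within the array. None of the 6 probe sets of the trefoil factors and AGR genes is a multi-transcript probe set, one whose ID ends in _x_at, _s_at or _a_at and which may match several transcripts.

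AGR3, the close relative of AGR2, differed little between arrays. Probe set 228241_at read 0.02 with estradiol, -0.08 with ERα17p and -0.03 with vehicle. The differences from vehicle were 0.05 for estradiol and -0.05 for ERα17p, both about 1.04-fold in size. With a reading this near the reference on every array, an expressed and stable gene cannot be told apart from a gene near the detection limit.

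**Figure D2:**
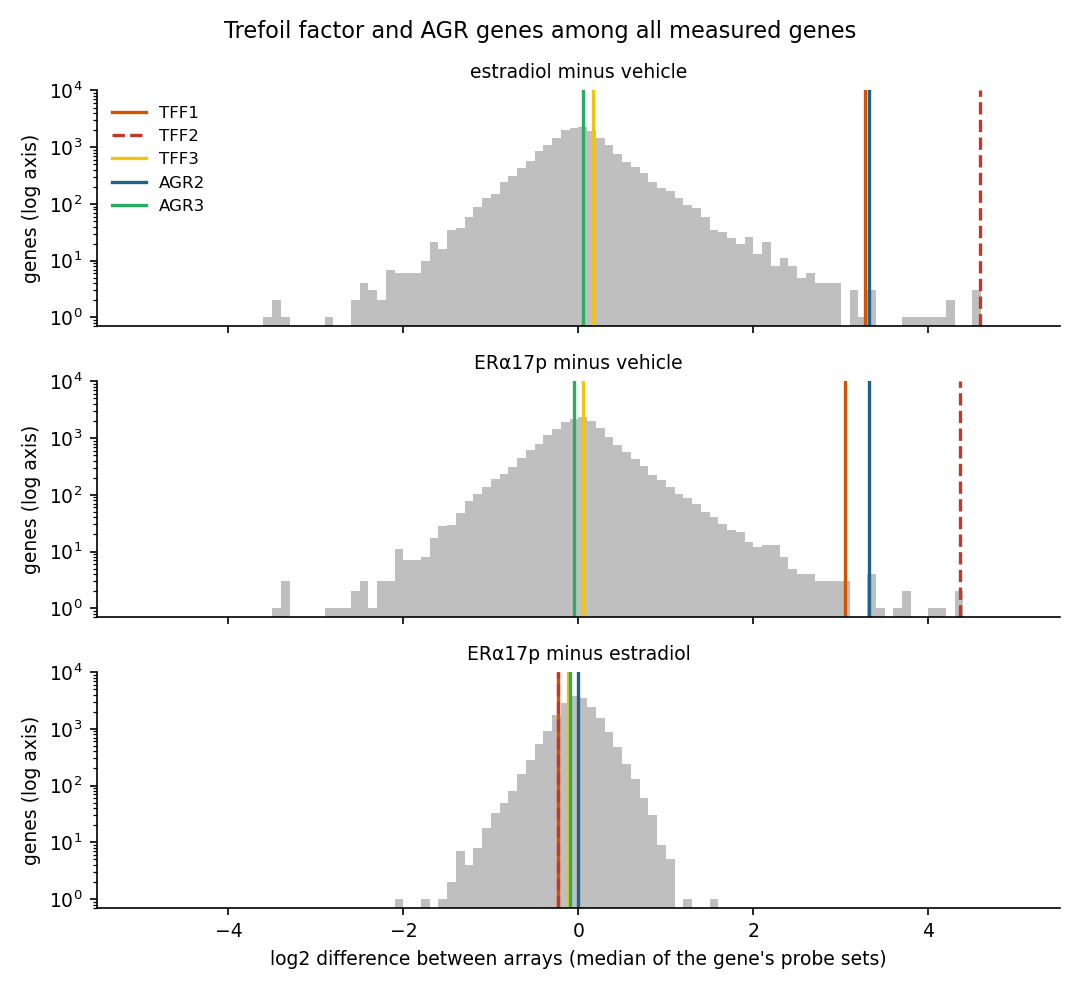
Number of genes (log axis) by log2 difference between arrays (horizontal axis, bins of 0.1) for 19775 genes in each of the 3 comparisons, with vertical lines at the 5 genes. TFF2 is at the upper end of both comparisons with vehicle, TFF1 and AGR2 lie between 3.05 and 3.32, and all 5 lie between -0.24 and 0.00 when ERα17p is set against estradiol, where the TFF1 and TFF2 lines coincide.

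AGR2 and AGR3 are neighbouring genes with different readings, and their promoters are shown for that reason. RefSeq promoter sequences (GRCh38.p14) were matched for 2 of the 5 genes, AGR2 and AGR3, and the 250 bases before each start site are printed 5′ to 3′ on the minus strand. AGR2 is at chr7:16805000-16805249 and AGR3 at chr7:16881984-16882233. Capitals mark every match to the motifs searched on both strands.
AGR2 promoter: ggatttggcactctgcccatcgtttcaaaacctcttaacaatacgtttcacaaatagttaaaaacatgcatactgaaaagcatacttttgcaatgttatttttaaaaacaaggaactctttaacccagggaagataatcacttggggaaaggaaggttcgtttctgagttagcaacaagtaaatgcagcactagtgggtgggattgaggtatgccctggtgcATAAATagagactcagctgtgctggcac
AGR3 promoter: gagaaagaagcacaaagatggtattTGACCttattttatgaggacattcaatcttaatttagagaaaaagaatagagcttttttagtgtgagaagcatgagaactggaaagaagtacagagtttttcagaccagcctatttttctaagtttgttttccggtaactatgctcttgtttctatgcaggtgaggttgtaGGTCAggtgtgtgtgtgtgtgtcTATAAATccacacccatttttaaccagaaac

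The motifs were the oestrogen response element GGTCANNNTGACC, its half-site GGTCA, the forkhead motif TGTTTAC, the TATA box TATAAA, the core ACGTG found in motifs of XBP1 and HIF, and ATAAAT. The last was added after the sequences were seen, and overlaps the TATA box by all but 1 of its letters. ATAAAT was present once in either promoter, from position -28 to -23 in AGR2 and from -30 to -25 in AGR3, counted from the start site. It is held by 11.7% of 35116 promoters of this length. AGR3 also had a full TATAAA from -31 to -26 (10.7% of promoters). Half-sites of the oestrogen response element were found in AGR3 only, at -225 to -221 (as TGACC) and at -54 to -50, and 32.6% of promoters hold at least 1. The full response element, held by 0.0399% of promoters, the forkhead motif (2.98%) and ACGTG (18.5%) were in neither window. GC content was 40.4% in AGR2 and 36.4% in AGR3, beside a median of 58% over all promoters. A match of letters is a description of the sequence and not a binding site.

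Genes next to the trefoil factors were read as well. The 3 TFF genes lie next to each other on chromosome 21 in the order TFF3, TFF2, TFF1. On the TFF3 side the next measured genes were the cholesterol exporter ABCG1 (0.38 with estradiol and 0.06 with ERα17p, relative to vehicle), UMODL1-AS1 (0.19 and 0.20) and UMODL1 (-0.19 and -0.04). On the TFF1 side they were the serine protease TMPRSS3 (-0.05 and -0.05), UBASH3A (0.05 and 0.10) and RSPH1 (0.11 and -0.37). None of these 6 genes reached 1.5-fold in either comparison, while TFF2 and TFF1 each differed by 3.05 or more. Most genes of the arrays did not reach it either. The shares that did were 10.6% upward and 8.42% downward with estradiol, and 9.56% and 8.82% with ERα17p. Nothing is read from the count of neighbours.

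Around the AGR pair on chromosome 7 the readings were more mixed. On the AGR3 side AHR, the aryl hydrocarbon receptor, was 1.46 higher with estradiol and 1.67 higher with ERα17p. On the same side LOC101927609 gave 0.97 with estradiol and 0.27 with ERα17p, and LINC02888 gave 0.15 and -0.14. On the AGR2 side the tetraspanin gene TSPAN13 gave 0.56 and 0.65, BZW2 gave -0.15 and -0.08, and ANKMY2 gave 0.84 and 0.80. AGR3, at 0.05 and -0.05, lay between AGR2 and LOC101927609, both with higher readings, though LOC101927609 was short of 1.5-fold with ERα17p. AHR was the next measured gene beyond LOC101927609. Under quantile normalisation AHR was at 0.89 with estradiol and 1.14 with ERα17p.

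**Figure D3:**
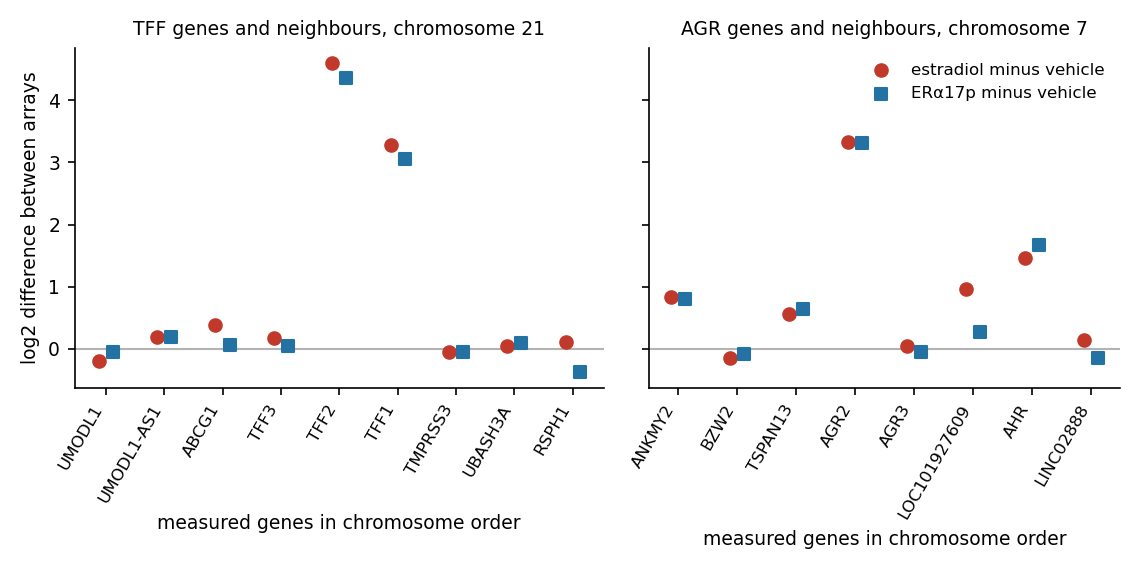
Log2 difference from the vehicle array (vertical axis) for the estradiol and ERα17p arrays, for measured genes in chromosome order (horizontal axis, not to distance) around the TFF genes and the AGR genes, 1 point per array pair. TFF2, TFF1 and AGR2 lie above 3, AHR lies at 1.46 and 1.67, and every other gene lies below 1.

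The genes whose 2 differences from vehicle were nearest to those of TFF2, by the Euclidean distance over those 2 differences, which draw on the 3 arrays, were HLA-DRA (distance 0.25), HLA-DPA1 (0.40) and the cadherin CDH11 (0.49). HLA-DRA, a chain of MHC class II, was 4.56 higher with estradiol and 4.12 higher with ERα17p. HLA-DPA1 gave 4.29 and 4.09, and CDH11 4.11 and 4.35. After quantile normalisation these genes too were lower, with CDH11 at 2.30 and 2.64. Nearest to AGR2 were the tumour antigen gene MAGEC1 (distance 0.17, with 3.15 and 3.33), TFF1 (0.27) and the cystatin CST2 (0.33, with 3.37 and 2.99). That TFF1 was second nearest to AGR2 follows from values that the choice of genes had used.

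The separation of TFF1, TFF2 and AGR2 lay in the reading of the vehicle array. On that array 58 of 19775 genes were at least 2 below the reference level on the log2 scale, these 3 among them, and 14 were at least 2 above it. On the estradiol and ERα17p arrays 0 genes were that far below. Of the 58, 45 were within 1.5-fold of the reference on both treated arrays, as TFF1 and AGR2 were; TFF2 was 0.65 above it with estradiol. By gene, TFF2 was the third lowest on the vehicle array, AGR2 the tenth and TFF1 the 14th. With the reference level as the baseline, TFF2 was at 0.65 with estradiol and 0.41 with ERα17p, TFF1 at 0.35 and 0.12, and AGR2 at 0.20 and 0.19, all short of 2-fold. After quantile normalisation of the 3 arrays, the differences from vehicle were 3.00 and 2.69 for TFF2, 2.06 and 1.77 for TFF1, and 1.98 and 2.04 for AGR2. The arrays behind the reference level are not known. With 1 vehicle array, an effect of treatment and a departure of that array cannot be told apart.

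Set directly against each other, which leaves out the vehicle array, the peptide and the hormone at the same concentration and time gave close readings of all 5 genes. TFF2 read 0.41 with ERα17p and 0.65 with estradiol, a difference of -0.24, and TFF1 read 0.12 and 0.35, a difference of -0.23. TFF3 differed by -0.12, AGR3 by -0.10 and AGR2 by 0.00. None of the 5 reached 1.5-fold, as 1.29% of all genes did upward and 2.04% downward; at 2-fold the shares were 0.0354% and 0.212%. The median of the 5 was -0.12, beside -0.01 over all genes, of which 52.9% were below 0. The value of AGR2 joined opposite readings, 0.32 for probe set 209173_at and -0.33 for 228969_at, and its sign turned under either scaling of the arrays, to 0.06 and 0.01. With 1 array for each agent no interval can be given, and these values do not show that the agents act alike.

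Other products of mucous epithelia differed little from vehicle, and whether they were above background is unknown. Of 19 measured mucus genes, 0 were at least 1.5-fold higher or lower with estradiol, beside 10.6% and 8.42% of all genes. With ERα17p 1 was higher and 0 lower, beside 9.56% and 8.82%. That gene was LYZ, which encodes lysozyme, at 0.78 (0.39 with estradiol). CLCA1, a secreted goblet cell protein, was at -0.58 with estradiol and -0.36 with ERα17p, and the membrane mucin MUC1 at 0.51 and 0.39. MUC13, another membrane mucin, was at -0.42 and -0.19. The list median was -0.02 with estradiol and -0.08 with ERα17p. Under either scaling of the arrays 1 mucus gene was 1.5-fold higher and 1 lower with estradiol. With each array scaled to the mean SD, 1 was also lower with ERα17p. By the mean of probe sets 1 was higher with estradiol, MUC1 being at 0.86. LYZ and MUC1 were read by multi-transcript probe sets alone. Without such probe sets 16 mucus genes were left, LYZ and MUC1 not among them, and 0 passed 1.5-fold with either agent.

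Reported receptors and binders of trefoil factors or AGR proteins stayed short of 1.5-fold by the median of all their probe sets. Of 6 measured genes, 0 reached 1.5-fold in either direction with either agent, and the medians were -0.02 and 0.02. Among all genes 10.6% were that much higher and 8.42% lower with estradiol, and 9.56% and 8.82% with ERα17p. With 6 genes, nothing is read from the count. The chemokine receptor CXCR4, reported as a TFF2 receptor, was at -0.20 with estradiol and -0.49 with ERα17p, or at -1.14 and -1.11 without multi-transcript probe sets. In that setting 1 of the 6 genes was 1.5-fold lower with either agent. By the mean of probe sets 1 was lower with ERα17p, CXCR4 being at -0.65. ACKR3, a related receptor, was at 0.11 and 0.30, LINGO2, reported to bind TFF3, at 0.13 and -0.23, and EGFR at -0.29 and 0.06.

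Transcription factors of secretory epithelium lay on both sides of 0. Of 17 measured, with estradiol 2 were 1.5-fold or more higher and 1 lower, and 2 higher and 2 lower with ERα17p, with medians of 0.07 and 0.10. The shares of all genes were 10.6% higher and 8.42% lower with estradiol and 9.56% and 8.82% with ERα17p, and the counts of the 17 factors lay near them. KLF4, a zinc finger factor of epithelial differentiation, was 1.52 and 1.43 higher, and EHF, an ETS factor of epithelia, 1.07 and 1.78 higher. USF1, a helix-loop-helix factor, was at -1.48 and -1.56. The forkhead factor FOXA3 was at -0.06 with estradiol and -0.91 with ERα17p. KLF4 was read by multi-transcript probe sets alone. Without such probe sets 15 factors were left, KLF4 not among them. Of these, 0 were 1.5-fold higher with either agent, while 1 was lower with estradiol and 2 with ERα17p. EHF was then at 0.48 and 0.54.

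Of the other disulphide isomerase family, 5 of 20 measured genes were at least 1.5-fold higher with estradiol and 7 with ERα17p, and 0 were lower with either. Over all genes, 10.6% were that much higher and 8.42% lower with estradiol, and 9.56% and 8.82% with ERα17p. The list median was 0.29 with estradiol and 0.17 with ERα17p, beside 0.00 over all genes. TMX1, a membrane-bound member, was 1.22 and 1.44 higher. DNAJC10, a reductase that takes part in degradation of misfolded proteins, was 0.99 and 0.93 higher, TXNDC16 0.83 and 0.80, and TXNDC15 0.78 and 0.81. AGR2, at 3.32 and 3.31, lay above every one of these 20 genes, and AGR3 below each of those named here. Without multi-transcript probe sets, 3 of 19 genes were higher with estradiol and 4 with ERα17p, and TMX1 was at 0.15 and 0.43, DNAJC10 at 0.42 and 0.39, and TXNDC15 at 0.54 and 0.41, all short of 1.5-fold. With the mean of probe sets DNAJC10 was at 0.54 and 0.53. Under either scaling of the arrays 2 genes of the family were 1.5-fold lower with ERα17p.

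Among 17 other oestrogen-induced genes, with estradiol 3 were 1.5-fold or more higher and 1 lower, and 2 higher and 0 lower with ERα17p; the medians were 0.01 and 0.07. Among all genes the shares higher and lower were 10.6% and 8.42% with estradiol, and 9.56% and 8.82% with ERα17p. SERPINA1, the antitrypsin gene, was 1.97 higher with estradiol and 1.61 higher with ERα17p, and the carbonic anhydrase CA12 was 1.15 and 1.01 higher. GREB1, a cofactor of ERα, was at 0.67 and 0.26. CCND1, which encodes cyclin D1, was at -0.89 and -0.46. TFF1, at 3.28 and 3.05, lay above all 17. Without multi-transcript probe sets, 1 of 15 genes was higher and 1 lower with estradiol, and 0 higher and 1 lower with ERα17p. CCND1 was then at -0.72 and -0.68, SERPINA1 at 0.24 and -0.17 and CA12 at 0.16 and -0.040.

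Marker lists of breast cell types stood beside these values, to be read against 10.6% of all genes higher and 8.42% lower with estradiol, and 9.56% and 8.82% with ERα17p. Of 19 measured luminal markers, 1 was at least 1.5-fold higher and 1 lower with estradiol, and 0 higher and 2 lower with ERα17p, with medians of 0.06 and 0.04. The luminal keratins KRT18 (-0.84 and -0.87) and KRT8 (-0.47 and -0.55) were below 0, the adhesion molecule EPCAM was at 0.78 and 0.43, and RAB25, a GTPase of epithelial cells, was at 0.13 and -0.98. KRT18, KRT8 and EPCAM were read by multi-transcript probe sets alone; without such probe sets 12 luminal markers were left, of which 0 were higher or lower with estradiol, and 0 higher and 1 lower with ERα17p. Of 15 mesenchymal-like markers, with either agent 4 were 1.5-fold or more higher and 0 lower (medians 0.24 and 0.24), led by SNAI2, a repressor of epithelial genes (1.84 and 2.08). CAV2 gave 1.07 and 0.86, and the fibronectin gene FN1 0.81 and 0.99. Named as well because they passed were PLAU, with estradiol only (0.66 and 0.26), and ZEB1, with ERα17p only (0.35 and 0.61). CD44, at 0.54 and 0.58, fell short of 1.5-fold with both agents. Below 0 with both agents were 5 markers, VIM, FOSL1, AXL, CDH2 and LOX, named after their values were seen; the lowest were VIM at -0.23 with estradiol and FOSL1 at -0.31 with ERα17p. Without multi-transcript probe sets, 2 of 11 mesenchymal-like markers were higher with either agent, and 1 was lower with estradiol and 0 with ERα17p. FN1 was then at -1.04 and -0.54. Summed levels of the markers cannot be given from centred values.

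**Figure D4:**
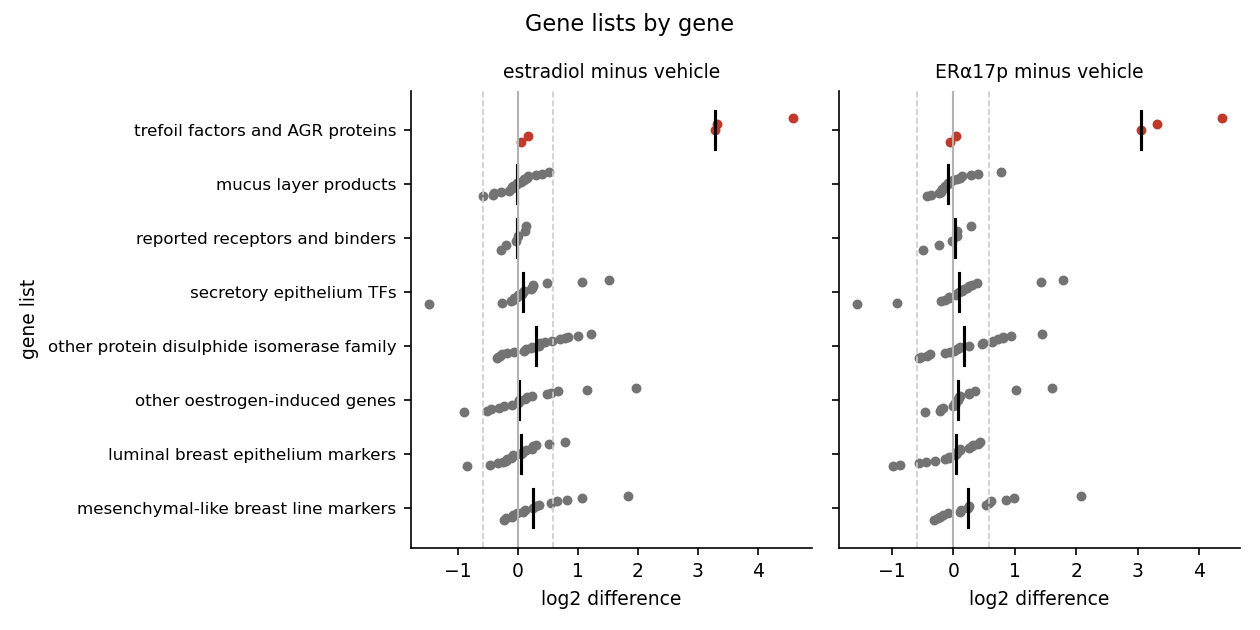
Log2 difference from vehicle (horizontal axis) of each gene of the trefoil factor and AGR group and of 7 gene lists (rows), for the estradiol array and the ERα17p array, 1 point per gene, with a black bar at the list median and dashed lines at 1.5-fold. The list medians lie between -0.08 and 0.29, and the points of TFF1, TFF2 and AGR2 lie beyond every gene of the lists in either comparison.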

How the data were processed

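Total RNA of MDA-MB-231 cells was labelled with biotin and hybridised to Affymetrix HG-U133 Plus 2 arrays, per the labels' protocols. The submitters' processing notes name RMA, a method that corrects background, normalises by quantiles and summarises probes into log2 values; they state no version. Beyond RMA, the deposited log2 values had been centred per probe set: the values spread around 0, with a median of 0 in every column and no trace of expression level. Exact zeros made up 8.14% of the estradiol column, 8.54% of the ERα17p column and 7.08% of the vehicle column. No source describes that step.

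Of 54675 probe sets, 41097 were paired with 1 symbol in the platform annotation, 1801 with several (not used) and 11777 with none. A gene's value was the median over its probe sets of the difference between arrays, computed with pandas 2.3.3. With 1 array per group no test was run; precision is limited by the number of arrays. Calls were 2-fold for all genes and 1.5-fold for lists. The calculation was checked on simulated data.

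Of 115 genes in the 7 lists, 108 had a probe set paired with that symbol alone and the rest were not analysed here. The members and lists were chosen with earlier results of these data known. Named were all members, up to 4 genes per list with the largest mean absolute difference from vehicle, 3 measured genes on either side of the TFF and AGR genes by order in the RefSeq table of GRCh38.p14, and the 3 genes nearest to TFF2 and to AGR2. Alternatives were 2 array scalings, the mean of probe sets, probe sets that match several transcripts left out, and the reference level in place of vehicle.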

Additional observations from a re-analysis of the deposited data

Results flagged for a closer look

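AGR3 drew attention because its differences from vehicle had opposite signs, 0.05 with estradiol and -0.05 with ERα17p on the log2 scale. The difference between the treatments was not tested, since each had 1 array. Both values are smaller than 0.25, the SD over all genes of the difference between the treated arrays.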

How the results depend on the processing

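No paired analysis was possible because each group had 1 array and no difference came from a test. A difference was counted as moved where it shifted by more than 0.25, the SD over genes of the difference between the treated arrays, since there are no replicates, and a count where it changed by more than 1.5 times or between 0 and any number. After quantile normalisation, the differences from vehicle with estradiol and with ERα17p were 2.06 and 1.77 for TFF1, 3.00 and 2.69 for TFF2, and 1.98 and 2.04 for AGR2. With each array scaled to the mean SD they were 2.41 and 2.13, 3.48 and 3.22, and 2.35 and 2.36. All of these stayed beyond 2-fold. Both scalings bring the arrays to a common spread, which narrows the vehicle array and widens the treated arrays. Against the reference level they were 0.35 and 0.12, 0.65 and 0.41, and 0.20 and 0.19. In all, 18 of 70 recomputed member values moved and 0 called values reversed. The 18 were the differences of TFF1, TFF2 and AGR2 from vehicle under both scalings and against the reference level. Taking the mean of probe sets or leaving out multi-transcript ones could not change any member. No member had a multi-transcript probe set or more than 2 probe sets. The share that moved is therefore no measure of stability. Genes at least 2-fold higher and lower with estradiol numbered 514 and 196 after quantile normalisation, and 524 and 189 after SD scaling, in place of 779 and 432. With ERα17p they numbered 397 and 295, and 429 and 273. For ERα17p against estradiol they numbered 81 and 181, 68 and 151, and 15 were higher without multi-transcript probe sets. Without those probe sets, 6 list genes were 1.5-fold higher with estradiol and 6 with ERα17p, in place of 15 and 16, and 16790 genes were left. After SD scaling, 7 list genes were lower with ERα17p, in place of 4. Between the treatments 1 list gene was higher and 5 lower under either scaling, in place of 0 and 2. Of 168 recomputed counts for single lists, 37 moved. For the 45 other genes named by the stated rules, 342 differences from vehicle were recomputed. Of these, 76 moved and 4 reversed. The 4 reversals were all without multi-transcript probe sets: CA12 (-0.040) and SERPINA1 (-0.17) with ERα17p, and FN1 with estradiol (-1.04) and ERα17p (-0.54).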
